A study of Mus musculus with 6 samples.

Results

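The zinc finger genes described here are the mouse genes with symbols from Zfp700 to Zfp999, with or without a letter suffix. Of 137 such symbols in the reference, 116 had a probe on the array, out of 20887 genes with a probe in all. The other 21 symbols had none and were not analysed here. Many genes in this number range encode KRAB zinc finger proteins. In such a protein a row of zinc fingers binds a DNA sequence, often within a retrotransposon, and the KRAB domain recruits TIF1b, the corepressor encoded by Trim28. TIF1b in turn brings the histone methyltransferase SETDB1 and HP1 proteins, which silence the bound chromatin. KRAB zinc finger genes lie in clusters of close copies and can themselves be targets of this silencing. Which members carry a KRAB domain was not scored here.

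The arrays measured sorted c-Kit+ Sca1+ Lineage- (KSL) cells, in which blood stem cells are enriched, from mice on a C57BL6 background. Fetal liver (FL) gave 1 KO array (Tie2-Cre with Tif1b f/f) and 1 WT array (Tie2-Cre with Tif1b w/w). Adult bone marrow (BM) gave 2 KO arrays (CreERT with Tif1b f/f) and 2 WT arrays (CreERT with Tif1b w/w). Cre was thus present on every array, WT included. Tie2-Cre acts in blood and endothelial cells from embryonic life on, whereas CreERT is a Cre that tamoxifen activates, and its dose, timing and promoter are not given in the labels. The age of the animals is not given, and the labels do not say whether the arrays of a group stem from different animals. The p-values therefore may reflect technical spread only. The BM replicate 2 labels read Tif2b where the others read Tif1b. The description lines of BM WT and BM KO replicate 1 name knockdowns of Hp1a and Hp1g in c-Kit+ Lineage- cells, against their other labels.

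Each slide carried 1 KO and 1 WT array of a single tissue, and each of the 3 slides is thus 1 replicate pair. Between 24398 and 31431 of 55681 probes were well above background on an array, fewest on FL WT and most on BM WT replicate 2. The array labelled BM WT replicate 1 stood apart. Its column in the authors' deposited value table matched its scanner file within 1% for 1.40% of probes, against 100% on the other 5 arrays. In its scanner file Kit, the receptor used in the sort, was at 1.30, while it lay between 4.16 and 4.50 on the other arrays and in the value table. Values here are log2 signals relative to the 75th percentile of the array. Trim28 itself was at 1.68 in FL KO and 5.97 in FL WT. It was at 1.28 and 0.75 in the BM KO arrays, and at 5.55 in BM WT replicate 2. For BM WT replicate 1 it was at 5.18 in the value table and 2.45 in the scanner file. Counts of members past the test without a block are therefore given from both sources, called the value table and the scanner file after the origin of that 1 array. Single values are those of the value table where no source is named. In pair 1 the KO minus WT difference had opposite signs in the 2 sources for 36 of the 107 members tested (39.8% of all genes).

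Markers of some other cells moved with genotype. Given as the log2 of the summed level, 7 neutrophil markers stood at 8.04 and 4.67 in BM KO, against 10.34 and 9.38 in BM WT with the value table, and 5 monocyte markers at 4.34 and 3.38 in BM KO, against 7.19 and 6.13 in BM WT. The 3 mast cell markers stood at 6.68 and 5.97 in BM KO and at 4.002 and 4.25 in BM WT, the 4 megakaryocyte markers at 7.67 and 7.64 in BM KO and at 6.76 and 6.40 in BM WT, and the 6 erythroid markers at 8.51 and 4.75 in BM KO and at 2.89 and 3.14 in BM WT. Neutrophil and monocyte markers were thus lower, and the mast cell, megakaryocyte and erythroid lists higher, on both BM KO arrays. The 8 B lymphoid markers stood at 3.83 and 4.71 in BM KO and at 4.43 and 4.16 in BM WT. The 8 T and NK markers stood at 7.23 and 6.54 in BM KO and at 6.71 and 6.32 in BM WT, and both of these lists overlapped between genotypes. In fetal liver the 5 hepatocyte markers stood at 0.55 in KO (2 of 5 above background) and 3.12 in WT (4 of 5). In bone marrow they were also lower in KO, at -0.63 and -1.12, against 1.76 and 1.29 in WT with the value table. At most 2 of the 5 were above background on a bone marrow array, and the scanner file of BM WT replicate 1 had them at -2.27. The 8 KSL markers were all above background on every array except FL KO (7) and the scanner file of BM WT replicate 1 (6). In that scanner file the 8 B lymphoid markers stood at 7.89, against 3.83 to 5.37 on the other arrays, and 1 of the 4 megakaryocyte markers was above background. The part of these cells in the differences below was not tested, and in bulk RNA fewer cells of a type and less RNA per cell cannot be told apart.

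Most members were measurable in KSL cells. On the scanner arrays 87 of the 116 were well above background on all 6, and with the value table column 88 were. A further 23 members were above background on some arrays with that column, and 5 were above background on none (Zfp735, Zfp775, Zfp804a, Zfp811 and Zfp827). No member was saturated. Where a gene has several probes the brightest stands for it, which concerns 49 members with more than 1 of the 180 member probes. In 11 of 44 members with at least 2 measured probes the bone marrow differences of the probes had opposite signs, and in 5 (Zfp781, Zfp961, Zfp975, Zfp981 and Zfp995) they lay more than 1 log2 unit apart. Probe sequences were not used here, so signal of a close copy on a member's probe cannot be told apart from its own.

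Of 8 members with a known function 5 were tested by genotype in bone marrow, and none passed without the slide as a block, which is taken up below. Zfp809, which binds the primer binding site of murine leukaemia viruses and recruits TIF1b there, was at -0.57 in FL KO and -0.70 in FL WT, at -0.10 and 0.28 in BM KO, and at -0.67 and 0.08 in BM WT with the value table. Its bone marrow groups overlapped, and its difference of 0.38 ± 0.35 (SE) did not pass limma (adjusted p = 0.896). Zfp932, which represses endogenous retroviruses in mouse embryonic stem cells, was at 0.77 in FL KO and 1.24 in FL WT, while in bone marrow it was at 2.74 and 2.03 in KO and at 2.66 and 2.27 in WT. The 2 genotypes overlapped in bone marrow, and all 4 bone marrow arrays lay above both fetal liver arrays. Zfp703, a corepressor known as an oncogene in breast cancer, was at 2.41 and 2.47 in BM KO against 3.00 and 2.73 in BM WT, lower in both pairs by 0.59 and 0.26 without overlap. That difference did not pass either (adjusted p = 0.702, limma), and in fetal liver it was -0.07. The scanner file had BM WT replicate 1 at 4.08. Zfp746, the gene of the parkin substrate PARIS, was at 1.49 and 1.65 in BM KO and at 1.42 and 1.97 in BM WT, groups that overlap. Zfp750, a regulator of epidermal differentiation, was above background on BM WT replicate 2 alone, and Zfp827 on no array.

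In bone marrow the members as a set were not shifted when the value table was used, and 2 of them passed the test. Zfp874a fell and Zfp963 rose in BM KO, which makes 2 of 107 members tested against 0.803% of all 12946 genes (limma, Benjamini-Hochberg adjusted p under 0.05). Both entered the test only through the group where they were higher, and with the test limited to probes above background on all arrays neither was included and 0 members passed. Zfp874a passed under the other settings run with the value table. Zfp963 did not pass after quantile normalization, with no filter on dim probes, with the mean over probes, with the percentile taken over probes above background on all arrays or without BM WT replicate 1 (adjusted p up to 0.245, limma). The median difference over the members was 0.01, beside -0.05 over all genes tested and 0.06 over 216 Zfp genes with other numbers. A total of 54 members were higher in BM KO and 53 lower. At an unadjusted p under 0.05, 22 members were counted against 11.1% of all genes, of which 16 were higher (background 5.79%) and 6 lower (5.28%). Both BM KO arrays lay above both BM WT arrays for 29 members (17.7% of all genes, 26.9% of Zfp genes with other numbers). They lay below both for 22 (19.6% and 14.8%).

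Zfp874a had the widest difference of any member. It was at -5.78 and -6.30 in BM KO, against 0.23 and 0.29 in BM WT with the value table, and at -1.84 in FL KO and -1.36 in FL WT. Its bone marrow groups were far apart, while fetal liver differed by 0.48 only. The probe was not well above background on either BM KO array, so the fall is a bound of at least 64.7-fold (adjusted p = 0.0065, limma; measured means -6.04 in BM KO and 0.26 in BM WT). In the scanner file of BM WT replicate 1 the same probe was at -4.96 and not well above background, and the gene was not tested there. The difference between tissues in this response did not pass in the interaction test (-5.82 ± 0.51 SE, adjusted p = 0.148). Zfp874b, its neighbour on chromosome 13, was at 0.23 and 0.30 in BM KO and at -0.21 and 0.18 in BM WT, the opposite direction, though its 2 measured probes differed in sign.

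Zfp963, on chromosome 8, was at -2.48 and -2.12 in BM KO, against -4.33 and -4.39 in BM WT, and at -2.11 in FL KO and -2.25 in FL WT. The 2 BM WT arrays stood below the other 4. The bone marrow difference was 2.06 ± 0.26 (SE; adjusted p = 0.0487, limma), a 3.59-fold and a 4.83-fold difference in the 2 pairs, and the WT level was above background on BM WT replicate 2 only. The scanner file of BM WT replicate 1 had it at -5.09, and the test then gave 2.44 ± 0.44 (adjusted p = 0.896, limma). Its 4 closest member neighbours on chromosome 8 (Zfp930, Zfp868, Zfp869 and Zfp866) differed by at most 0.28 in either pair.

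**Figure D1:**
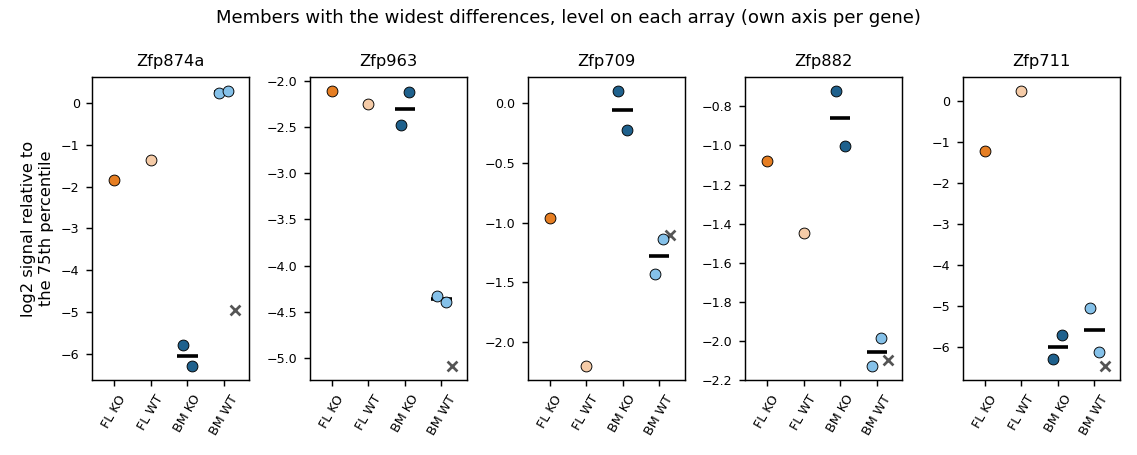
Level of Zfp874a, Zfp963, Zfp709, Zfp882 and Zfp711 on each array, as log2 signal relative to the array's 75th percentile, each gene on its own axis. Circles are arrays (BM WT replicate 1 from the value table), bars are means of the 2 bone marrow arrays and the grey cross is BM WT replicate 1 from the scanner file, which for Zfp874a lies near the KO arrays at -4.96.

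With the slide as a block, each KO array is set against the WT array of its own slide. For each gene this fit has 1 residual degree of freedom, the agreement of the pair differences, and limma moderates the spread across genes. In it 14 of the 107 members passed (7.69% of all genes): 11 higher (3.99%) and 3 lower (3.7%). The 11 that rose were Zfp709, Zfp781, Zfp867, Zfp882, Zfp945, Zfp963, Zfp981, Zfp982, Zfp984, Zfp985 and Zfp992, by between 0.93 and 2.06. The 3 that fell were Zfp819, Zfp874a and Zfp931. With the scanner file pair 1 had the opposite sign for 3 of the 14, Zfp781 (-0.16), Zfp819 (1.08) and Zfp931 (1.76). In the scanner files the block gave 0 of 100, as did the fit without it (0% of all genes; 8 members at an unadjusted p under 0.05, against 4.24% of genes).

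Zfp819, described in mouse pluripotent cells and testis, was at -4.84 and -6.84 in BM KO, against -2.49 and -4.50 in BM WT. The groups overlapped between slides, but within each slide KO lay lower by 2.35 and 2.34. In the scanner file BM WT replicate 1 was at -5.92 and not well above background, below its KO partner, and the gene was not tested there. Neither KO array was well above background, so the bound is at least 3.85-fold (adjusted p = 0.0038 with the block and 0.420 without it, limma). Zfp819 entered that test only through BM WT, the group where it was higher. Zfp931 was at -0.51 and -0.20 in BM KO and at 1.03 and 0.62 in BM WT, without overlap, and at 0.33 in FL KO and -0.02 in FL WT, the other way round. The scanner file of BM WT replicate 1 had Zfp931 at -2.27, below both KO arrays.

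**Figure D2:**
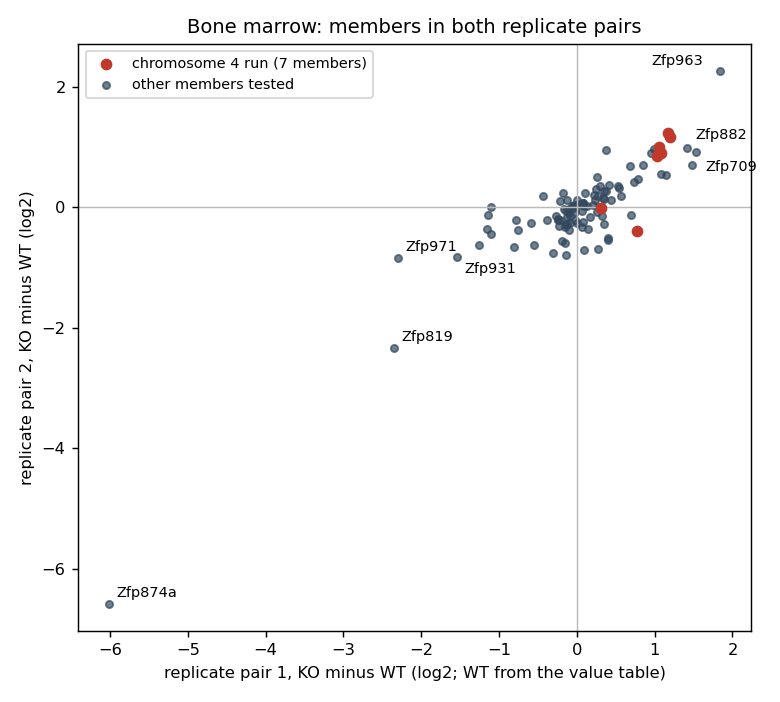
KO minus WT in bone marrow replicate pair 1 (x axis, WT from the value table) and pair 2 (y axis), both in log2 units, for the 107 members tested. Zfp874a and Zfp819 lie at the lower left and Zfp963 at the upper right, and 5 of the 7 members of the chromosome 4 run lie together near 1 on both axes.

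Members were next grouped by place, since KRAB zinc finger genes sit in clusters. Members with at most 10 other genes between them were joined into a run, and 56 of the 115 members placed on the GRCm38.p6 annotation fell into 8 runs of at least 4. On chromosome 4 a run of 7 (Zfp992, Zfp981, Zfp982, Zfp985, Zfp979, Zfp984 and Zfp933, in that order) stood together in BM KO. Its median difference was 1.06 in pair 1 of the value table and 0.90 in pair 2. In both pairs 5 of the 7 were higher by over 0.8. The share of all genes past that cut was not counted, so how unusual this count is cannot be judged. In the other 7 runs the medians lay between -0.13 and 0.11 in pair 1 and between -0.24 and 0.05 in pair 2. This cluster is known from mice that lack it, in which retrotransposons are derepressed.

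Of these, Zfp985 was at 2.73 and 2.45 in BM KO, against 1.56 and 1.21 in BM WT, and at 0.63 in FL KO and 0.30 in FL WT. Zfp981 was at 3.47 and 3.12 in BM KO, against 2.27 and 1.94 in BM WT. Zfp984 was at 4.54 and 4.15 in BM KO, against 3.47 and 3.25 in BM WT. In each of these the KO and WT arrays did not overlap. Zfp982 was at 1.92 and 1.47 in BM KO, against 0.86 and 0.46 in BM WT. Zfp992 was at 3.21 and 2.71 in BM KO, against 2.18 and 1.85 in BM WT. These 5 members were thus between 1.82-fold and 2.36-fold higher in KO in each pair of the value table, and in fetal liver KO was higher by 0.11 to 0.33.

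None of the 5 passed the fit without the block, and all 5 passed with it. Zfp985 had a difference of 1.20 ± 0.28 (SE), with an adjusted p of 0.171 without the block and 0.0201 with it (limma). For Zfp981 these values were 1.19 ± 0.28, 0.180 and 0.0206, and for Zfp992 they were 0.94 ± 0.30, 0.318 and 0.0395 (limma). The second measured probe of Zfp981 gave -0.11, whereas both probes of Zfp984 (0.99 and 1.03) and of Zfp992 (0.83 and 0.94) were higher in KO. In the scanner file BM WT replicate 1 was at 3.05 for Zfp981, so pair 1 differed by 0.42 there, and it was at 2.62 for Zfp992, a difference of 0.58. For Zfp982, Zfp984 and Zfp985 pair 1 of the scanner file differed by 1.27, 0.98 and 1.26.

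By their brightest probes the remaining members of the run were not higher in both pairs. Zfp979 was at 1.51 and 0.25 in BM KO, against 0.74 and 0.64 in BM WT, and the groups overlapped. Zfp933, at the end of the run, was at 0.24 and -0.11 in BM KO and at -0.07 and -0.10 in BM WT. With the scanner file pair 1 was higher in KO by 3.03 for Zfp979 and by 0.91 for Zfp933. Second probes gave bone marrow differences of 0.60 for Zfp979 and 0.22 for Zfp933 with the value table. The annotation places 6 further protein-coding genes between the ends of the run, and 2 of them were measured. Rex2, a zinc finger gene, differed by 1.12 ± 0.28 in bone marrow and was well above background in FL KO but not in FL WT. Zfp534 differed by 0.90 ± 0.28 in bone marrow and by 0.29 in fetal liver. The adjusted p in bone marrow was 0.199 for Rex2 and 0.301 for Zfp534 without the block, and 0.0285 and 0.0424 with it (limma). With the scanner file pair 1 differed by only 0.28 for Rex2 and 0.37 for Zfp534. There BM WT replicate 1 had Rex2 at -1.86, above BM KO replicate 2 at -2.01.

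**Figure D3:**
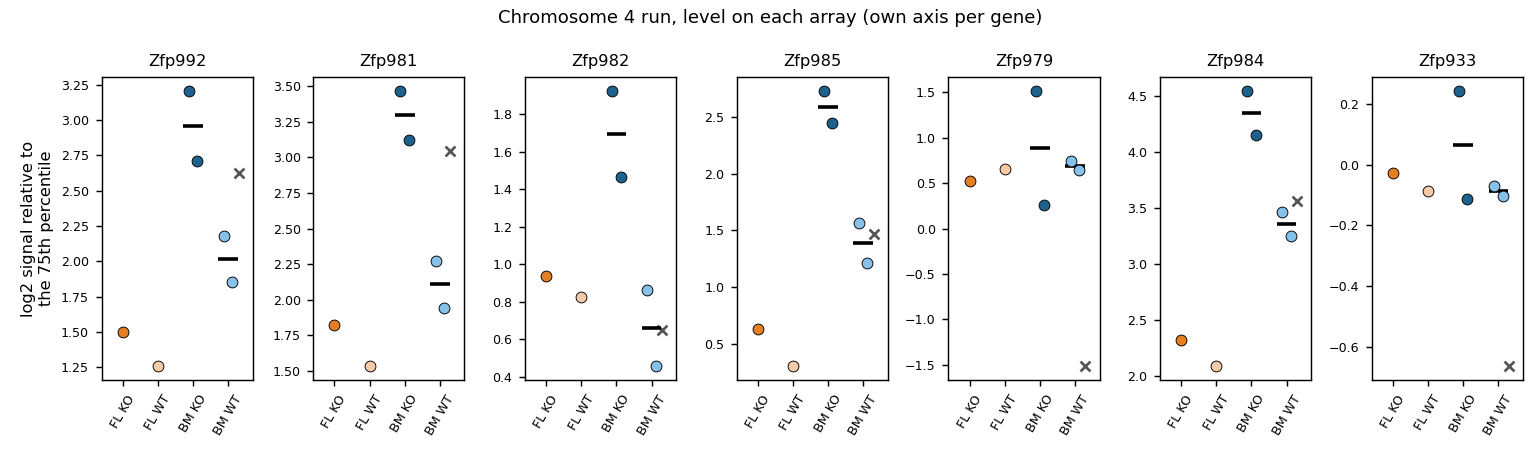
Level of the 7 members of the chromosome 4 run on each array, as log2 signal relative to the array's 75th percentile, each gene on its own axis. Circles are arrays (BM WT replicate 1 from the value table), bars are means of the 2 bone marrow arrays and the grey cross is BM WT replicate 1 from the scanner file. Both BM KO circles lie above both BM WT circles in Zfp992, Zfp981, Zfp982, Zfp985 and Zfp984.

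The stretches upstream of the run are shown because 5 of them, those of Zfp981, Zfp982, Zfp985, Zfp979 and Zfp984, shared sequence. These are not the 5 members that were higher in both pairs, since Zfp979 is among them and Zfp992 is not. Each stretch shown is the 250 bases before an annotated start in the RefSeq promoter table (GRCm38.p6), 5′ to 3′ on the gene's strand. Capitals mark a run of 15 bases common to 5 of them (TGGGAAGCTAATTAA) and, on either strand, the letters CCAAT of a CCAAT box and those of a GC box, GGGCGGG. Zfp992 had no entry.
Zfp981: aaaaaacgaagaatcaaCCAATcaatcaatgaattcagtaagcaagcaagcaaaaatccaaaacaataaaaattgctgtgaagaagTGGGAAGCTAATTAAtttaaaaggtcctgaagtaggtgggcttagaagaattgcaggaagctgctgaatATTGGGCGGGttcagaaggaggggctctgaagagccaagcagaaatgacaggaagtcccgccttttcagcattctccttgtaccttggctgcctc
Zfp982: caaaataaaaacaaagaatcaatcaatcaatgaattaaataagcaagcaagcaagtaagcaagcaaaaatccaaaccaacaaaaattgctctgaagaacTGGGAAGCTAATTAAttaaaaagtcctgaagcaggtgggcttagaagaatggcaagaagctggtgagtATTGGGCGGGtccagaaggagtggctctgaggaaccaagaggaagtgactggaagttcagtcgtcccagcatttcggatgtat
Zfp985: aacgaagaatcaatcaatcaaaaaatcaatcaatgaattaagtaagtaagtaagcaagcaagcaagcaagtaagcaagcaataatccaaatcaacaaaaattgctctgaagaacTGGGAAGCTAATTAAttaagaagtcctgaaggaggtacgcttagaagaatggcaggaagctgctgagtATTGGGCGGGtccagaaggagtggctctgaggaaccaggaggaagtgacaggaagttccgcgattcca
Zfp979: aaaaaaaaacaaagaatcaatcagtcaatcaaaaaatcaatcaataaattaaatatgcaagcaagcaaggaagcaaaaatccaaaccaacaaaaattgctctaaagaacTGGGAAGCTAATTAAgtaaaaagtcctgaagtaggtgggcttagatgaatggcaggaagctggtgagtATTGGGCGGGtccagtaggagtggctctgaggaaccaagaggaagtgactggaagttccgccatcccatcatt
Zfp984: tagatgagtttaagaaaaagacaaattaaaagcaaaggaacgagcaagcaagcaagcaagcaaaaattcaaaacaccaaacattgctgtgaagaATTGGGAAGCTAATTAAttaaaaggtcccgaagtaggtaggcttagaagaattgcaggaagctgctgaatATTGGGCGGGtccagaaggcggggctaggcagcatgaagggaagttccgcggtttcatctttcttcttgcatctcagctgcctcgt
Zfp933: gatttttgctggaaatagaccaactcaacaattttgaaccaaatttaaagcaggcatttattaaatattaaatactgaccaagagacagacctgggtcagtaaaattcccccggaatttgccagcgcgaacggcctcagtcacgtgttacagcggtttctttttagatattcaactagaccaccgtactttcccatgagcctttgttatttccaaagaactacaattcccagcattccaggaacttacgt
They lie at chr4:146514670-146514919 on the plus strand for Zfp981, at chr4:147492167-147492416 on the plus strand for Zfp982 and at chr4:147553027-147553276 on the plus strand for Zfp985. Zfp979 is at chr4:147642509-147642758, Zfp984 at chr4:147809789-147810038 and Zfp933 at chr4:147848419-147848668, all on the minus strand.

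Aligned end to end, the 5 stretches other than that of Zfp933 were 68.1% to 83.5% identical over their 10 pairs (median 74.9%), and Zfp933 was 48.8% to 51.2% identical to them. Zfp982 has 3 annotated starts, and the one most like Zfp985 was used. The 15-base run was found upstream of 12 genes in the whole table, all on chromosome 4. Of these, 8 were measured and tested: the 5 genes from which the run was taken, Rex2 and Zfp534 described above, and Zfp600. Zfp600 differed by 0.20 and 0.91 in the pairs of the value table and by -0.74 in pair 1 of the scanner file, and did not pass (adjusted p = 0.703 without the block and 0.228 with it, limma). The run was therefore present upstream of Zfp979, whose brightest probe differed in direction between the pairs, and absent upstream of Zfp933.

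In each of the 5 stretches a reversed CCAAT box overlaps the GC box, as ATTGGGCGGG. This 10-letter word, on either strand, occurred in 36 of 32851 stretches of all genes (0.110%), and 10 of the 36 genes that hold it lie on chromosome 4. It occurred upstream of 7 members, 5 of them on chromosome 4. Promoter entries were found for 102 of the 116 members (120 stretches) and not for 14. A GC box stood in 31.7% of the member stretches, against 23.4% of all stretches, and a CCAAT box in 62.5%, against 33.8%. The median number of CG dinucleotides was 8 in member stretches and 6 in all. Such matches are descriptions of letters, not of binding.

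Zfp709 and Zfp882, neighbours on chromosome 8, were higher in KO in every pair and in both sources. Zfp709 was at 0.10 and -0.22 in BM KO, against -1.43 and -1.14 in BM WT with the value table and -1.10 in the scanner file of BM WT replicate 1. In fetal liver it was at -0.97 in KO and -2.20 in WT, 2.36-fold higher in KO, so no KO array overlapped a WT array of its tissue. Zfp882 was at -0.72 and -1.0003 in BM KO, against -2.13 and -1.98 in BM WT, and at -1.08 in FL KO and -1.45 in FL WT. The bone marrow differences were 1.22 ± 0.27 for Zfp709 (adjusted p = 0.163 without the block, 0.0375 with it, limma) and 1.20 ± 0.26 for Zfp882 (0.152 and 0.0292). A second probe of Zfp882 differed by 0.25. Their upstream stretches, shown to set beside those of the chromosome 4 genes, lie at chr8:71881818-71882067 and chr8:71908356-71908605 (GRCm38.p6, plus strand) and hold neither the 15-base run nor a GC box.
Zfp709: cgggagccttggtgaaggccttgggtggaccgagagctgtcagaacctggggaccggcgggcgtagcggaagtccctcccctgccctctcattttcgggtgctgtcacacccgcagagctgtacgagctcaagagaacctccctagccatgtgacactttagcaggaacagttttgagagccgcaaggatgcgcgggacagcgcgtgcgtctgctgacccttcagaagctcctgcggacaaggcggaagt
Zfp882: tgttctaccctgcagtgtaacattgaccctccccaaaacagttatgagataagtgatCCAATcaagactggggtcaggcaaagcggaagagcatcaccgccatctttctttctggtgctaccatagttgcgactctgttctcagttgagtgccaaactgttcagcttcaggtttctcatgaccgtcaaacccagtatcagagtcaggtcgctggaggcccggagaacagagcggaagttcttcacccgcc
They were 51.9% identical to each other, and 44.9% to 51.9% was the range over all 18 pairs that involve them or Zfp933. Zfp961, the third member at that place, differed by 0.35 and -0.27 in the 2 pairs.

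In fetal liver, with 1 array per genotype and no replicate, 3 of 99 members were at least 2-fold higher in KO (5.42% of all genes) and 2 at least 2-fold lower (4.49%). The median over the members was -0.03, beside -0.06 over all genes, with 48 members higher and 51 lower. Zfp971 was at -0.85 in FL KO and -3.22 in FL WT, where it was not well above background, a difference of at least 5.14-fold. In bone marrow the direction was the other way, with -3.90 and -2.81 in BM KO against -1.60 and -1.97 in BM WT. The interaction of -3.93 ± 0.75 (SE) did not pass (adjusted p = 0.257, limma), and in the scanner file BM WT replicate 1 was at -6.13, below both KO arrays. Zfp709 (1.24) and Zfp773 (1.02) were the others higher in FL KO. Zfp773 was at -3.09 and -2.42 in BM KO and at -2.30 and -2.22 in BM WT, lower in KO there, but with the scanner file pair 1 differed by -0.01 only.

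Zfp983 was at -5.20 in FL KO, where it was not well above background, and at -2.94 in FL WT, a difference of at least 2.59-fold. In bone marrow it was at -2.73 and -3.29 in KO and at -2.60 and -3.41 in WT, and the groups overlapped. Zfp711, the X-linked gene whose human counterpart acts with the demethylase PHF8, was lower by 1.47 in FL KO. The next members by size in fetal liver were Zfp715 (0.81) and Zfp967 (0.66) on the higher side and Zfp873 (-0.92), Zfp975 (-0.83) and Zfp799 (-0.78) on the lower. Zfp831 was not well above background in FL WT and was at least 1.56-fold higher in FL KO.

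Taking both tissues together, no member passed the test of genotype in either source (0 of 108 with the value table, 0.175% of genes; 0 of 105 with the scanner files, 0% of genes; limma). Before adjustment, 17 had a p under 0.05 with the value table (10.3% of genes) and 5 with the scanner files instead (3.45%). Zfp709 had 1.23 ± 0.19 (SE, adjusted p = 0.133). KO was higher in all 3 pairs of the value table for 30 members (17.4% of genes) and lower in all 3 for 28 (26.2%). The difference between tissues in the KO response passed for 0 of 108 members with the value table (0% of genes) and 0 of 105 with the scanner files (0%). Before adjustment, 9 (7.09%) and 1 (2.66%) had a p under 0.05. With the slide as a block 3 passed with the value table (3.08% of genes), Zfp819, Zfp874a and Zfp983.

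The source of BM WT replicate 1 changed how the members looked. With the scanner file the median pair 1 difference over the 100 members tested was 0.52, whereas in pair 2 it was 0.02. The pair 1 median was 0.22 over all genes and 0.37 over 213 Zfp genes with other numbers. With the value table pair 1 had a median of 0.08 over 107 members. With the scanner file both BM KO arrays lay above both BM WT arrays for 34 members (15.6% of genes, 27.2% of those other Zfp genes). They lay below both for 4 (13.1% and 8.92%). In its scanner file BM WT replicate 1 had the members lower than in the value table by a median of 0.36. All genes were lower by 0.17 and Zfp genes with other numbers by 0.30. Of 106 members 22 were at least 2-fold lower (17.2% of genes).

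**Figure D4:**
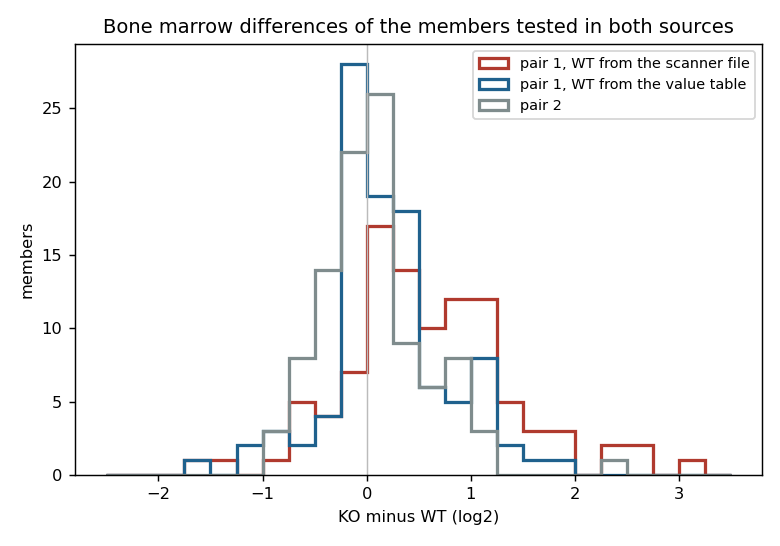
Number of members (y axis) by KO minus WT in bone marrow (x axis, log2 units, bins of equal width) for the 100 members tested in both sources. The line for pair 1 with the scanner file is shifted to higher values (median 0.52), while pair 1 with the value table (0.09) and pair 2 (0.02) centre near 0.

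Without the slide as a block, more members passed by tissue than by genotype, and with it fewer did (7 by tissue and 14 by genotype in bone marrow). With the value table and no block, bone marrow and fetal liver differed in 28 of 108 members (limma; 22.7% of all genes), of which 24 were higher in bone marrow (8.88%) and 4 lower (13.9%). The median over the members was 0.18, beside -0.26 over all genes. With the scanner files 2 of 105 passed (2.09%), Zfp711 and Zfp758. Both fetal liver arrays shared 1 slide and the bone marrow arrays lay on 2 others, so fetal liver cannot be told apart from its slide. The fit without the block takes the arrays of a slide as independent. With the slide as a random block 7 members passed with the value table (6.1% of genes): Zfp711, Zfp758, Zfp790, Zfp947, Zfp951, Zfp959 and Zfp994. Tie2-Cre and CreERT also differ between the tissues and cannot be told apart from them.

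Zfp711 was at -1.23 in FL KO and 0.24 in FL WT, the only arrays on which it was well above background. It entered the tissue test only through these arrays, where it was higher. In bone marrow it was at -6.29 and -5.70 in KO and at -5.06 and -6.14 in WT with the value table. Bone marrow was at least 27.1-fold lower (adjusted p = 0.0032, limma; measured means -5.80 in bone marrow and -0.49 in fetal liver), and at least 39.0-fold lower with the scanner files. Zfp790 was at 0.15 and 0.02 in BM KO and at 0.15 and -0.11 in BM WT, against 1.68 in FL KO and 1.66 in FL WT. All 4 bone marrow arrays lay below both fetal liver arrays, by 1.62 ± 0.18 on average (SE, adjusted p = 0.0063). Zfp786 (-1.61 ± 0.30) and Zfp710 (-0.95 ± 0.17) were the other members lower in bone marrow.

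Zfp758, on chromosome 17, was at 0.24 and 0.13 in BM KO and at -0.16 and -0.25 in BM WT, against -2.16 in FL KO and -1.96 in FL WT. Bone marrow was 4.15-fold higher with the value table (2.05 ± 0.21 SE, adjusted p = 0.0054, limma). Zfp959 was at 0.07 and 0.13 in BM KO and at -0.17 and -0.18 in BM WT, against -1.47 in FL KO and -1.60 in FL WT. Neither gene overlapped between tissues. Zfp948 was well above background on all 4 bone marrow arrays and on neither fetal liver array. It was at least 2.40-fold higher in bone marrow (adjusted p = 0.0168, limma), and entered the test only through that tissue. Zfp932, named above, rose by 1.42 ± 0.28 in bone marrow relative to fetal liver (adjusted p = 0.0245, limma).

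Zfp758 and Zfp948 belong to a run of 12 members on chromosome 17 (Zfp948, Zfp983, Zfp760, Zfp820, Zfp995, Zfp943, Zfp947, Zfp994, Zfp944, Zfp758, Zfp946 and Zfp945). Bone marrow was higher in 10 of the 12 (in 5034 of all 13704 genes tested), with a median of 1.06. The exceptions were Zfp760 (-0.28) and Zfp944 (-0.34). Of the 12, Zfp948, Zfp943, Zfp947, Zfp994 and Zfp758 passed. The same run had medians of 0.09 and 0.04 for KO minus WT in the 2 bone marrow pairs, with Zfp945 (0.96 and 0.91) and Zfp995 (0.85 and 0.71) the highest in both. The second probe of Zfp995 gave -0.78. In the chromosome 4 run the tissue median was 1.02, with all 7 higher in bone marrow with the value table. Of these, Zfp979 (0.20) and Zfp933 (0.05) lay close to 0, and with the scanner files both were lower (-0.37 and -0.10). Zfp984 (1.65 ± 0.26), Zfp985 (1.53 ± 0.28) and Zfp992 (1.11 ± 0.27) passed with the value table.

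**Figure D5:**
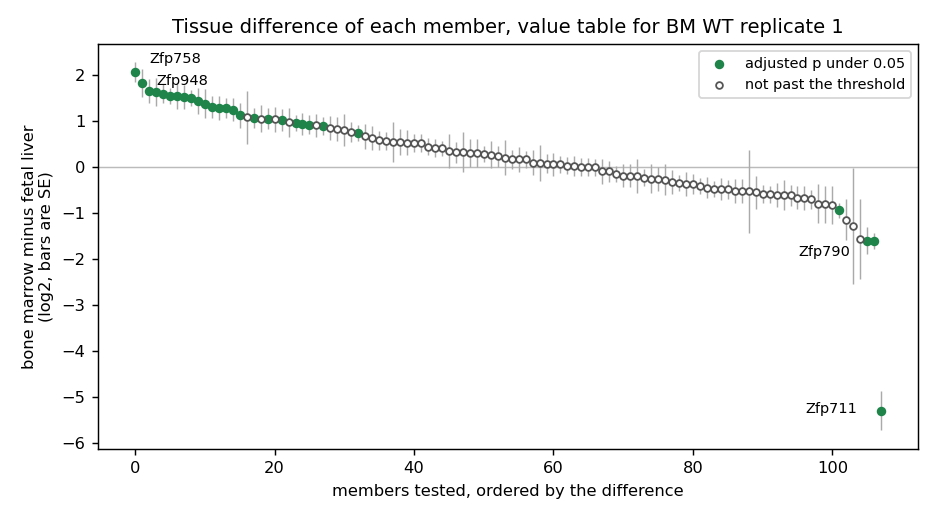
Bone marrow minus fetal liver for each of the 108 members tested (y axis, log2 units, with SE as bars), ordered by size along the x axis, with the value table for BM WT replicate 1. The 28 filled points passed at an adjusted p under 0.05 (limma), 24 above 0 and 4 below, and Zfp711 lies apart at -5.30.

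The brightest member probes came from Zfp771, Zfp706, Zfp995, Zfp710, Zfp791, Zfp768, Zfp976 and Zfp777, though probe brightness does not rank transcripts. Zfp706, described in the exit of mouse embryonic stem cells from self-renewal, was at 4.90 and 4.57 in BM KO, against 5.46 and 5.19 in BM WT, and at 5.43 in FL KO and 5.54 in FL WT. KO was lower in both bone marrow pairs without overlap, by 0.59 ± 0.27 (SE), and did not pass (adjusted p = 0.543, limma). Zfp777 was at 3.24 and 2.63 in BM KO, against 3.54 and 3.39 in BM WT, and at 3.49 in FL KO and 3.89 in FL WT. It was lower in KO in every pair of the value table, while with the scanner file pair 1 was higher in KO by 0.32. Zfp771 was at 5.09 and 4.77 in BM KO and at 5.33 and 4.98 in BM WT, groups that overlap, and at 4.41 in the scanner file of BM WT replicate 1.

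Among 36 genes of the TIF1b pathway 33 were tested in bone marrow, and Trim28 alone passed with the value table (-4.34 ± 0.31 SE, adjusted p = 0.0153, limma), while none passed with the scanner files. Setdb1, the methyltransferase that TIF1b recruits, was at 1.58 and 1.47 in BM KO, against 0.39 and 0.89 in BM WT (0.88 ± 0.29, adjusted p = 0.329, limma). The HP1 genes Cbx1 (0.08 ± 0.28), Cbx3 (0.01 ± 0.33) and Cbx5 (-0.01 ± 0.31) had differences within their errors. Trim24, a relative of Trim28, was at 2.97 and 3.17 in BM KO, against 1.79 and 1.81 in BM WT, and at 3.24 in FL KO and 1.52 in FL WT, higher in KO without overlap (1.26 ± 0.25 in bone marrow, adjusted p = 0.120). Resf1, which acts in the silencing of endogenous retroviruses, was at 4.18 and 3.71 in BM KO, against 2.01 and 1.85 in BM WT (2.02 ± 0.28, adjusted p = 0.0571, limma). For BM WT replicate 1 the scanner file had Trim24 at 5.17, above both KO arrays, and Resf1 at 3.65, below both.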

How the data were processed

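Total RNA (10 ng per sample) was labelled with Cy3 and hybridised to 1-colour Agilent arrays, per the labels' protocols. Per the submitters' processing notes the scans were read with Agilent Feature Extraction 10.7.1.1, and its background-corrected intensity per spot was used as deposited. The authors' value table gives a linear ratio for each probe, which is the signal over a constant near the array's 75th percentile (column medians 0.056 to 0.071). Why its BM WT replicate 1 column differs from the scanner file is not given in the sources used here.

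Control spots and outlier flags were left out, spots of a probe were averaged, and log2 signal minus the array's 75th percentile was taken. Probes were named through RefSeq accessions (27509 of 55681 with a symbol, 28172 with none), and the brightest probe stands for a gene. A gene entered a test if that probe was well above background throughout 1 of the groups or more. In the column of BM WT replicate 1 a level of -3.7 on the log2 scale stood in for the flag and matched 99.1% of flags on the BM KO array of the same slide. Tests used limma 3.58.1 (lmFit, eBayes) in R 4.3.3 (data.table, version 1.17.8), Benjamini-Hochberg over all genes tested, at an adjusted p under 0.05, and were checked on simulated data. Bone marrow KO and WT were compared over 4 arrays, and genotype, tissue and their interaction over all 6, the lone fetal liver arrays being assumed to vary like the others. Where the dimmer group had no array above background, the fold is given as a bound. Each dim array was then set at its measured signal or at the lowest signal above background on that array, whichever was higher. The level of -3.7 served for the value table column. For Zfp971 and Zfp831 in fetal liver the measured signal was the higher, so the bound equals the measured difference. Promoters were aligned with Biopython 1.88, and figures were drawn with Python 3.11.15 and matplotlib 3.10.9.

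Replicate numbers mark shared slides. Deviations of the KO and WT arrays of a bone marrow slide from their group means correlated across genes at r = 0.642 with the value table and 0.089 with the scanner files. The number of arrays limits the precision. Alternatives were normexp background correction, quantile normalization, other filters on dim probes, the mean over probes, the slide as a block and leaving out each bone marrow array. Normexp used the median foreground signal, since the files hold no mean signal, and was not run on the value table. The members and gene lists were chosen with earlier results of these data known. Named members are those past the threshold in any limma comparison, the 8 brightest and those with a known function. Up to 8 in each direction were also taken by the size of the fetal liver difference and of the tissue difference. For bone marrow and for all replicate pairs together, up to 8 were taken from members with 1 direction in every pair. These were ranked by their smallest difference, for bone marrow among members tested in both sources. Others named for their place or for their probes were chosen after their values were seen.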

Additional observations from a re-analysis of the deposited data

How the results depend on the processing

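Results below are counts of members past the threshold (limma), unless fold is named. In bone marrow 2 members passed with the value table, against 1 after quantile normalization, 1 with no filter on dim probes, 0 with probes above background on all arrays only, 1 with the mean over probes and 1 with the percentile taken over probes above background on all arrays (an alternative chosen after seeing the data). Pairing by slide, as a replicate block, gave 14, and leaving out single bone marrow arrays gave 1 to 4: 1 without BM WT replicate 1, 2 without BM KO replicate 1 and 4 without BM KO replicate 2 or BM WT replicate 2. With the scanner files the count stayed at 0 under every setting except leaving out an array, which gave 0 to 11: 1 without BM WT replicate 1 and 11 without BM WT replicate 2, when the doubted array is the lone WT. For tissue with the value table the count of 28 became 15 with no filter, 43 with the percentile over probes above background and 7 with the replicate block, and 11 to 14 when any of the 4 bone marrow arrays was left out. For tissue with the scanner files the count of 2 became 1 with normexp, 6 with quantile normalization, 1 with no filter, 8 with that percentile and 3 with the replicate block, and 0 to 11 when an array was left out: 11 without BM WT replicate 1 and 0 without any of the others. The interaction count of 0 with the value table became 1 with quantile normalization and 3 with the replicate block, and 0 to 2 without an array, and 0 to 1 with the scanner files. The genotype counts over both tissues stayed at 0 under all settings run, the replicate block included. In fetal liver the 5 members past 2-fold became 1 with normexp and 3 with the filter on all arrays. Normexp was not run on the value table, which holds no background signal. The cause of these moves was not tested. No member that passed both in the main fit and under an alternative had opposite directions there. Members that did not pass could change direction. In bone marrow with the scanner files Zfp931 was higher in KO by 0.47. Without BM WT replicate 1 it was lower, at a mean of -0.35 in BM KO against 0.62 in BM WT replicate 2. Over all members tested both ways, in the 8 combinations of comparison and source with a test, 194 calls held under an alternative, 120 were lost and 89 were gained. The 75th percentile signal ranged from 211 to 743, so dim members were measured least well in fetal liver.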

Other observations

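Across tissues, 4 of the 33 tested genes of the TIF1b pathway passed with the value table (limma), 0 higher and 4 lower in bone marrow than in fetal liver, beside 8.88% and 13.9% of all genes. That share is no higher than over all genes and is not a result about the pathway. They were Dnmt3b, a de novo DNA methyltransferase (-2.18), Uhrf1, which helps to keep DNA methylation through replication (-1.39), Cbx5, which encodes HP1 alpha (-1.23), and Suv39h1, a histone methyltransferase (-1.21). With the scanner files none of the 33 passed. The median over the pathway was -0.24, beside -0.26 over all genes tested.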
